A study of Homo sapiens with 24 samples.

Results

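BT549 cells kept in EPZ015666 were compared between day 5 and day 3 of treatment. EPZ015666 inhibits PRMT5, the enzyme that places symmetric dimethyl groups on arginines of histones and of the Sm proteins of the splicing machinery. The comparison rests on 4 of the 24 libraries of the series, chosen by their labels alone: 2 libraries (A and B) of cells given 5 µM EPZ015666 for 5 days and 2 of cells given the same dose for 3 days. The 4 BT549 libraries given DMSO, the drug's vehicle, for 5 or 3 days show the change with time in the absence of drug. The 4 OVCAR8 libraries given 5 µM EPZ015666 for 5 or 3 days show the change with time under the drug in another line. BT549 is a triple-negative breast cancer line with a mesenchymal look, and OVCAR8 is an ovarian cancer line. No label states that libraries A and B are separate cultures, and the p-values measure the spread between libraries, which may be technical. In the drug comparison, time under the drug, time in culture and the handling of each harvest cannot be told apart.

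PRMT5 acts with the cofactor WDR77 and takes its methyl groups from S-adenosylmethionine. Its substrates include the splicing machinery, histones and transcription factors, so its loss of activity is known to alter splicing and transcription broadly. Pathways that the changed genes belong to include sterol synthesis, which SREBP transcription factors control in response to membrane sterol, and the Hippo pathway, in which YAP and TEAD factors drive genes such as CTGF in spread, growing cells.

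The deposited table gives RPKM (reads per kilobase of gene, scaled to library size), with the whole gene span, introns included, as the length. Genes with long introns therefore have low values, and a level says little between genes. The 8 BT549 libraries held 23.75 M to 28.84 M recovered reads. Of 8 mesenchymal markers 5 were above 1 RPKM, with VIM, the mesenchymal filament gene vimentin, at 131 and 131 RPKM at day 5 and 116 and 123 RPKM at day 3 under the drug. Of the 8 epithelial markers in the table KRT18 alone was above 1 RPKM and EPCAM, the epithelial adhesion gene, did not pass 0.00251 RPKM. The summed epithelial markers were at 9.99 and 11.4 RPKM at day 5 under the drug and between 9.34 and 9.54 RPKM at day 3. The progesterone receptor gene PGR was at 0 in the 8 libraries, and the leukocyte markers in the table were at 0 in the 4 drug libraries. Library A of the drug at day 3 stood apart, with 1.388% of reads from 7 genes at the ribosomal RNA cluster of chromosome 21, against 0.236% to 0.298% in the other 7 BT549 libraries. Of 11 genes with a log2 change of at least 1 in size, none passed the threshold, and the lowest adjusted p by limma among them was 0.062. They were mostly short or ribosomal RNAs, such as FP236383.3 from that cluster, with 66.4 and 82.6 RPKM at day 5 and 2236 and 84.9 RPKM at day 3.

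Few genes changed between day 5 and day 3 under the drug. Of 6249 genes with a mean of at least 1 RPKM over the 8 BT549 libraries, 24 rose (0.384%) and 29 fell (0.464%) at an adjusted p under 0.05 by limma on log2(RPKM + 1), 53 in all (0.848%). At an unadjusted p under 0.05 there were 943 genes (15.1%). The changes past the threshold were small, with rises of 0.23 to 0.69 and falls of -0.28 to -0.77 on the log2(RPKM + 1) scale. Each of the 53 genes had both day 5 libraries on the same side of both day 3 libraries, as did 50.5% of all genes tested (60.7% in DMSO). The count rests on each drug library at day 5: it was 0 without library A, where 530 genes had an unadjusted p under 0.05, and 0 without library B, with 506. It was 10 without library A of the drug at day 3, 29 without library B of that group, and 4 without either DMSO library of day 5. With the 4 drug libraries fitted alone it was 0, with 995 genes at an unadjusted p under 0.05. A fit by limma-voom to reads recovered from the RPKM called 553 genes of 11704 tested, 51 of the 53 among them. There 347 genes rose (2.96%) and 206 fell (1.76%).

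**Figure D1:**
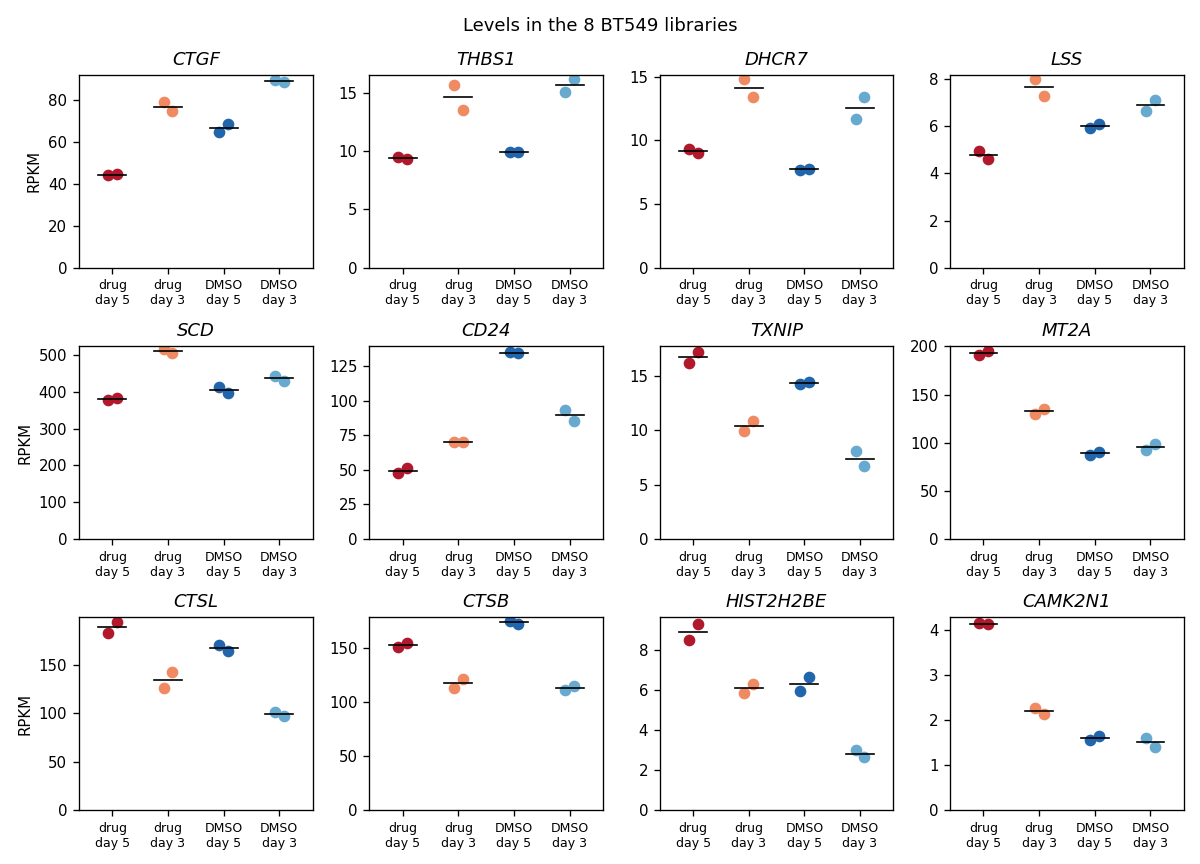
Levels of 12 genes in the 8 BT549 libraries, in RPKM on linear axes from 0. Each point is 1 library and each bar the mean of 2, with day 5 left of day 3 and drug left of DMSO, and CTGF lies at 44.2 and 44.6 RPKM at day 5 under the drug against 78.8 and 74.8 RPKM at day 3.

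CTGF (also CCN2), which encodes a secreted matrix protein and is a direct target of YAP and TEAD, had the largest fall among the called genes on the log2(RPKM + 1) scale. By the ratio of mean RPKM, COL9A2 (0.46), HBEGF (0.473) and ENTPD2 (0.473) were lower. CTGF had 44.2 and 44.6 RPKM at day 5 and 78.8 and 74.8 RPKM at day 3 under the drug. Its ratio was 0.579 (log2 change -0.77 ± 0.052, SE, adjusted p = 0.00863 by limma). The DMSO libraries had 64.7 and 68.6 RPKM at day 5 and 89.7 and 88.7 RPKM at day 3 (-0.41 ± 0.052). Both treatments thus had lower CTGF at day 5, and the fall was larger under the drug by -0.36 ± 0.074 on the log2 scale (adjusted p = 0.0404 for the difference). CTGF lies on chromosome 6 from 131948176 to 131951373 on the minus strand of GRCh38.

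The 250 bases before the start of CTGF are shown because this promoter is a known site of TEAD binding. RefSeq places them on GRCh38.p14 at chr6:131951373-131951622, minus strand, and the capitals mark GGAATG, the core that TEAD factors bind, searched on both strands.
CTGF: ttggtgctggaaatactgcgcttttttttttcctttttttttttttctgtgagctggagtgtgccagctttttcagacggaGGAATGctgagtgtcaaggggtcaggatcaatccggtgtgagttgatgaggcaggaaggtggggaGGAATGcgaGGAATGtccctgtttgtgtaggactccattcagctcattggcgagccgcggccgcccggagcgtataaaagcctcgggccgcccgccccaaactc
The motif was present 3 times. Of 35116 RefSeq promoters with windows of the same length 11.9% held at least 1 match and 0.0826% held at least 3. A match describes the letters, and binding was not measured.

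Of the 7 tested members of the YAP list 1 rose (NT5E) and 1 fell (CTGF), beside 0.384% and 0.464% over all genes. The list median was -0.251 beside -0.00752 over all genes tested. In DMSO 3 of the 7 fell and 0 rose, where 6.02% of all genes fell and 10.7% rose. NT5E, the ectoenzyme CD73 that makes adenosine, rose to 4.46 and 4.44 RPKM at day 5, against 2.96 and 3.23 RPKM at day 3 (log2 change 0.41 ± 0.044, adjusted p = 0.0178 by limma). In DMSO NT5E had 1.62 and 1.62 RPKM at day 5 and 1.59 and 1.53 RPKM at day 3, so its day 5 level under the drug stood above both vehicle groups. CYR61, a matricellular gene of the same family as CTGF, had 145 and 148 RPKM at day 5 and 179 and 171 RPKM at day 3 without passing the threshold (-0.25 ± 0.049, adjusted p = 0.0778 by limma). FJX1 and AMOTL2, also in the list, had log2 values of -0.44 and -0.33 under the drug and did not pass. In DMSO both fell, by -0.57 and -0.38 (adjusted p = 0.00906 and 0.0153 by limma).

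Other falls were in genes of the matrix, the cytoskeleton and secreted signals. THBS1, which encodes the matrix glycoprotein thrombospondin 1, had 9.46 and 9.3 RPKM at day 5 and 15.7 and 13.5 RPKM at day 3 (-0.58 ± 0.07, adjusted p = 0.0228 by limma). TPM1, the actin-binding tropomyosin gene, had 13.8 and 14.4 RPKM at day 5 and 18.7 and 20.5 RPKM at day 3 (-0.44 ± 0.066, adjusted p = 0.0393). Both genes were also lower at day 5 in DMSO, by -0.61 for THBS1 and -0.3 for TPM1. SOWAHD fell to 17.3 and 17.0 RPKM at day 5, against 28.1 and 27.5 RPKM at day 3. The chemokine gene CXCL2 had 3.46 and 3.44 RPKM at day 5 and 5.23 and 6.11 RPKM at day 3 (-0.58 ± 0.074, adjusted p = 0.0231). It was the 1 of 12 NF-kB targets past the threshold, where 0.464% of all genes fell. CXCL1 and CXCL8, chemokines of the same family, had log2 values of -0.38 and -0.67 and did not pass (adjusted p = 0.0675 and 0.0747 by limma). These chemokine genes were also lower at day 5 in DMSO, by -0.29 for CXCL2, -0.37 for CXCL1 and -0.44 for CXCL8. Their differences between the treatments did not pass (adjusted p = 0.141, 0.966 and 0.47 by limma).

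Of the gene lists, cholesterol synthesis had the most falls, and genes of fatty acid synthesis fell too. Of 20 tested genes of cholesterol synthesis and uptake 6 fell and none rose, and of 8 tested genes of fatty acid synthesis 2 fell and none rose, where 0.464% of all genes fell. The list medians were -0.218 and -0.153 beside -0.00752 over all genes tested. At an unadjusted p under 0.05 the counts were 14 falls and 0 rises for cholesterol and 4 falls and 0 rises for fatty acids, where 8.58% of all genes fell. The fit to recovered reads called 12 falls of 23 and 5 of 10, where 1.76% of all genes fell. In DMSO 2 of the 20 cholesterol genes rose and 4 fell, where 10.7% of all genes rose and 6.02% fell. The list medians in DMSO were -0.0426 for cholesterol and -0.0778 for fatty acids. In the test of the difference between the treatments 3 of the 20 cholesterol genes were lower and 0 higher. Of the 8 fatty acid genes 1 was lower and 0 higher, where 4.45% of all genes were lower.

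**Figure D2:**
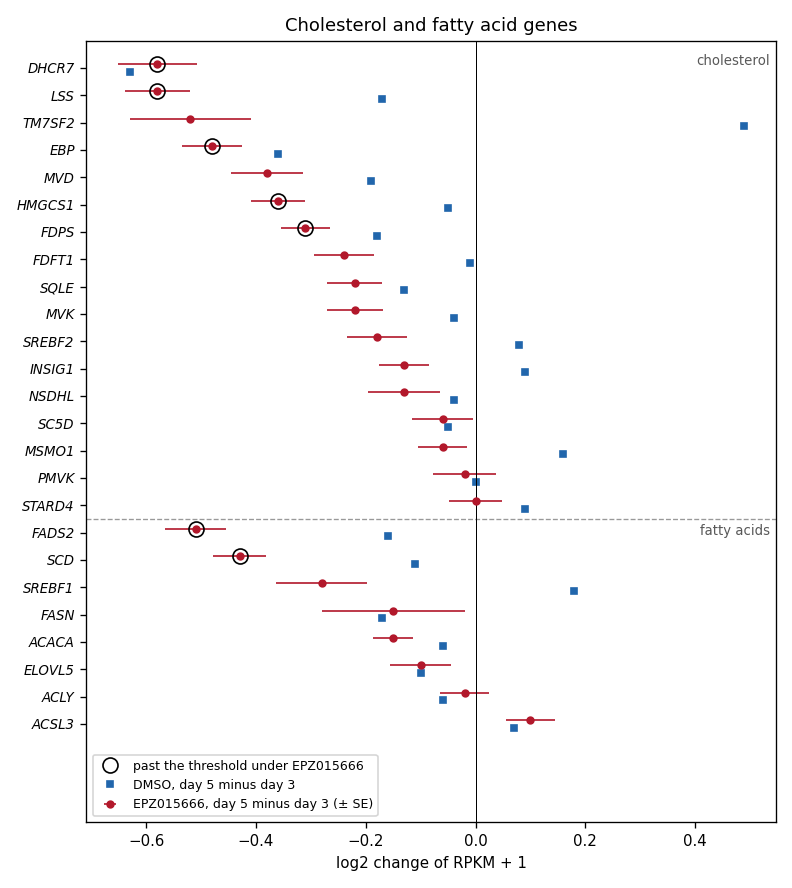
Day 5 minus day 3 change of 17 tested genes of cholesterol (top) and 8 of fatty acid (bottom) synthesis in BT549, as log2 of RPKM + 1, day 5 minus day 3. Circles with bars are EPZ015666 with the SE from limma, squares are DMSO, and rings mark the 5 cholesterol and 2 fatty acid genes plotted that passed the threshold under the drug, of which LSS at -0.58 lay furthest from its DMSO value of -0.17.

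The genes that fell sat at early and late steps of the pathway. HMGCS1, which makes HMG-CoA at the start of the mevalonate pathway, had 4.43 and 4.15 RPKM at day 5 and 5.67 and 5.92 RPKM at day 3 (-0.36 ± 0.049, adjusted p = 0.0306 by limma). FDPS, farnesyl diphosphate synthase, had 7.19 and 6.87 RPKM at day 5 and 8.95 and 8.97 RPKM at day 3. It fell in DMSO as well (-0.18), and its difference between the treatments did not pass (adjusted p = 0.252 by limma). LSS, lanosterol synthase, closes the sterol ring, and had 4.93 and 4.61 RPKM at day 5 and 7.99 and 7.28 RPKM at day 3, a ratio of 0.625 (-0.58 ± 0.059, adjusted p = 0.0171). These genes lie before the ring-modifying steps.

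The last enzymes of the pathway were lower too. DHCR7, which makes cholesterol from its 7-dehydro precursor, had 9.29 and 8.98 RPKM at day 5 and 14.8 and 13.4 RPKM at day 3 (-0.58 ± 0.072, adjusted p = 0.0231 by limma). EBP, a sterol isomerase, had 11.9 RPKM in both libraries at day 5 and 16.3 and 17.8 RPKM at day 3. DMSO cells fell as well, by -0.63 for DHCR7 and -0.36 for EBP, and the difference between the treatments did not pass for either (adjusted p = 0.762 and 0.347 by limma). For LSS and HMGCS1 it did, with differences of -0.41 ± 0.083 and -0.31 ± 0.07 (adjusted p = 0.0386 and 0.0481 by limma). HMGCS1 had 3.55 and 3.28 RPKM at day 5 and 3.56 and 3.56 RPKM at day 3 in DMSO.

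Of the desaturases, SCD, which makes monounsaturated fatty acids, had 379 and 383 RPKM at day 5 and 518 and 507 RPKM at day 3 under the drug (-0.43 ± 0.049, adjusted p = 0.0215 by limma). DMSO cells had 413 and 396 RPKM at day 5 and 443 and 431 RPKM at day 3, and the difference between the treatments was -0.32 ± 0.069 (adjusted p = 0.0461). SCD was highest in the drug libraries of day 3 and lowest in those of day 5. FADS2, which desaturates polyunsaturated fatty acids, had 19 and 19.2 RPKM at day 5 and 28.0 and 27.3 RPKM at day 3. Its DMSO change was -0.16, and its difference between the treatments did not pass (-0.35 ± 0.079, adjusted p = 0.0504 by limma). ACAT2, an acetyl-CoA acetyltransferase of the cytosol outside the lists, had 5.89 and 5.37 RPKM at day 5 and 8.14 and 9.43 RPKM at day 3, and it fell in DMSO as well (-0.48).

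Other SREBP-linked genes did not pass. SQLE, squalene epoxidase, had a log2 value of -0.22, and SREBF1, the gene of the factor SREBP-1, one of -0.28 (adjusted p = 0.1 and 0.192 by limma). TM7SF2, a sterol reductase gene, had 1.12 and 1.06 RPKM at day 5 and 2.2 and 1.79 RPKM at day 3 under the drug, against 3.11 and 3.59 RPKM at day 5 and 1.76 and 2.44 RPKM at day 3 in DMSO. Its change under the drug did not pass (adjusted p = 0.0985), while its difference between the treatments did (-1.01, adjusted p = 0.0255).

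The promoter of FDPS is shown as an example of a sterol pathway promoter with a sterol regulatory element-like motif. RefSeq places the 250 bases before its start on GRCh38.p14 at chr1:155308616-155308865, plus strand, partly inside the GENCODE span of FDPS, which starts at 155308748. The capitals mark TCACNCNAC, searched on both strands.
FDPS: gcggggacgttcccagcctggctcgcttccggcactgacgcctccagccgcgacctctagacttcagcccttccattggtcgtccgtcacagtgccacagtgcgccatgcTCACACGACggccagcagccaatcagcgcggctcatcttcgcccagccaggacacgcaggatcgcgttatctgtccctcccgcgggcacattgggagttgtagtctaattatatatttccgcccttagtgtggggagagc
The motif was present 1 time here and in 2.02% of the 35116 RefSeq promoters. Of the 9 lipid genes past the threshold 7 had a promoter in the RefSeq table, and FDPS and FADS2 held the motif. The letters do not show which factor acts there.

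Genes that rose included lysosomal proteases, histone genes and TXNIP. TXNIP, whose protein binds thioredoxin and limits glucose uptake, had 16.2 and 17.2 RPKM at day 5 and 9.93 and 10.8 RPKM at day 3 under the drug (0.64 ± 0.081, adjusted p = 0.0231 by limma). In DMSO it had 14.2 and 14.4 RPKM at day 5 and 8.05 and 6.72 RPKM at day 3 (0.87 ± 0.081). Day 5 was above day 3 under both treatments, and the difference between the changes did not pass (-0.23 ± 0.11, adjusted p = 0.245). TXNIP lies on chromosome 1 from 145992435 to 145996600, minus strand.

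Of 19 tested lysosome and autophagy genes 2 rose and none fell, where 0.384% of all genes rose and 0.464% fell. Both rises were cathepsins, and the list median was -0.0581. At an unadjusted p under 0.05 by limma 2 rose and 3 fell, where 6.51% of all genes rose and 8.58% fell. CTSL, cathepsin L, had 183 and 194 RPKM at day 5 and 126 and 142 RPKM at day 3 (0.49 ± 0.072, adjusted p = 0.0381 by limma). CTSB, cathepsin B, had 151 and 154 RPKM at day 5 and 113 and 121 RPKM at day 3 (0.38 ± 0.052, adjusted p = 0.0309). In DMSO 12 of the 19 rose (10.7% of all genes rose there), with a median of 0.256. The log2 change was lower under the drug than in DMSO for all 19, as for 3477 of the 6249 genes tested. Of the 19, 5 passed as lower in the test of the difference between the treatments, where 4.45% of all genes did. PSAP, the gene of the saposin precursor that helps to break down sphingolipids, had 37.4 and 38.6 RPKM at day 5 and 38.4 and 41.4 RPKM at day 3 under the drug, against 57.5 and 56.1 RPKM at day 5 and 40.8 and 41.5 RPKM at day 3 in DMSO. Its difference between the treatments was -0.53 (adjusted p = 0.0212 by limma).

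Of 13 tested histone genes 2 rose and none fell (0.384% of all genes rose), and at an unadjusted p under 0.05 by limma 6 rose and 0 fell (6.51% of all genes rose). The list median was 0.181 under the drug and 0.327 in DMSO, where 6 of the 13 rose (10.7% of all genes did). HIST2H2BE, a histone H2B gene, had 8.51 and 9.3 RPKM at day 5 and 5.84 and 6.32 RPKM at day 3 (0.48 ± 0.075, adjusted p = 0.048 by limma). HIST1H2AC, a histone H2A gene, had 3.42 and 3.43 RPKM at day 5 and 2.56 and 2.45 RPKM at day 3 (0.34 ± 0.046, adjusted p = 0.0306). The linker histone gene HIST1H1C had a log2 value of 0.37 and did not pass (adjusted p = 0.055). These genes have near-identical copies, and the values come from poly(A) RNA, which holds little of the replication-dependent histone transcripts.

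IGFBP5, an IGF-binding protein gene, and GJA1, the gene of the gap junction protein connexin 43, rose under the drug and in DMSO. IGFBP5 had 15 and 16.1 RPKM at day 5 and 11.8 and 11 RPKM at day 3 under the drug (0.42 ± 0.059), and its DMSO change was 0.5. GJA1 had 51.3 and 53.4 RPKM at day 5 and 41.5 and 40.3 RPKM at day 3 under the drug (0.35 ± 0.055), and its DMSO change was 0.42. The differences between the treatments, -0.09 ± 0.083 and -0.07 ± 0.078, did not pass (adjusted p = 0.555 and 0.627 by limma).

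MT2A and CAMK2N1 rose under the drug and did not pass in DMSO. MT2A encodes a metallothionein, a small protein that binds zinc and copper, and had 191 and 195 RPKM at day 5 and 130.0 and 135 RPKM at day 3 under the drug, a ratio of 1.46 (0.54 ± 0.055, adjusted p = 0.0171 by limma). DMSO cells had 87.5 and 90.6 RPKM at day 5 and 92.5 and 99.1 RPKM at day 3, and the difference between the treatments was 0.64 ± 0.078 (adjusted p = 0.0139). CAMK2N1, an inhibitor of the kinase CaMKII named here after its values were seen, had 4.15 and 4.14 RPKM at day 5 and 2.27 and 2.13 RPKM at day 3 under the drug (0.69 ± 0.051, adjusted p = 0.0088). DMSO cells had 1.56 and 1.65 RPKM at day 5 and 1.61 and 1.4 RPKM at day 3, with a difference between the treatments of 0.63 ± 0.073 (adjusted p = 0.0124). The drug libraries of both days were above the DMSO libraries for both genes, and those of day 5 were highest. SLC30A1, the zinc exporter gene that shares the metal-responsive factor MTF1 with the metallothioneins, had 5.5 and 5.45 RPKM at day 5 and 4.92 and 4.41 RPKM at day 3 under the drug and did not pass (adjusted p = 0.233). In DMSO it fell to 2.43 and 2.5 RPKM at day 5, against 4.22 and 3.7 RPKM at day 3, and the difference between the treatments was 0.71 ± 0.092 (adjusted p = 0.0156).

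The MT2A promoter is shown because metal response elements control metallothionein genes. RefSeq places the 250 bases before the MT2A start on GRCh38.p14 at chr16:56608334-56608583, plus strand, inside the GENCODE span of the gene, which runs from 56608199 to 56609497. The capitals mark TGCNCNC, the core of the metal response element, searched on both strands, so that some matches read in reverse.
MT2A: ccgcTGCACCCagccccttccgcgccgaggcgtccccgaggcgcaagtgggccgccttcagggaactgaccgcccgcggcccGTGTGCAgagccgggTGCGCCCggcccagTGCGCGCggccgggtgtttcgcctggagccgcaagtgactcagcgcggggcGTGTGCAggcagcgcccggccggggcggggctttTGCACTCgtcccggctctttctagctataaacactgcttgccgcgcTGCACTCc
The core was present 7 times. Of the 35116 RefSeq promoters 49.1% held at least 1 match and 0.0854% held at least 7. Metal content was not measured.

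In DMSO, more genes differed between the days. Of the same 6249 genes 668 rose (10.7%) and 376 fell (6.02%), 1044 in all (16.7%), against 53 (0.848%) under the drug. The contrast was smaller at an unadjusted p under 0.05 by limma, with 2133 genes (34.1%) in DMSO and 943 (15.1%) under the drug. The balance of directions in DMSO depended on the fit: with recovered reads 1073 of 11704 genes rose (9.17%) and 1552 fell (13.3%). The median size of a gene's log2 change was 0.0599 under the drug and 0.0949 in DMSO, and 41 genes under the drug and 119 in DMSO had a size of at least 0.5. The median difference between libraries A and B of a group was 0.0368 at day 5 and 0.0713 at day 3 under the drug, and 0.0476 at day 5 and 0.0848 at day 3 in DMSO. The median change of a gene under the drug was below the difference between the 2 libraries of day 3 and above that of day 5. These are unlike measures, since the change is between means of 2 libraries, which vary less than single libraries. The vehicle count was 158 without library B and 165 without library A of DMSO at day 5, 621 without library A of DMSO at day 3, 622 and 621 without library A or B of the drug at day 5, and 596 with the 4 DMSO libraries alone.

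**Figure D3:**
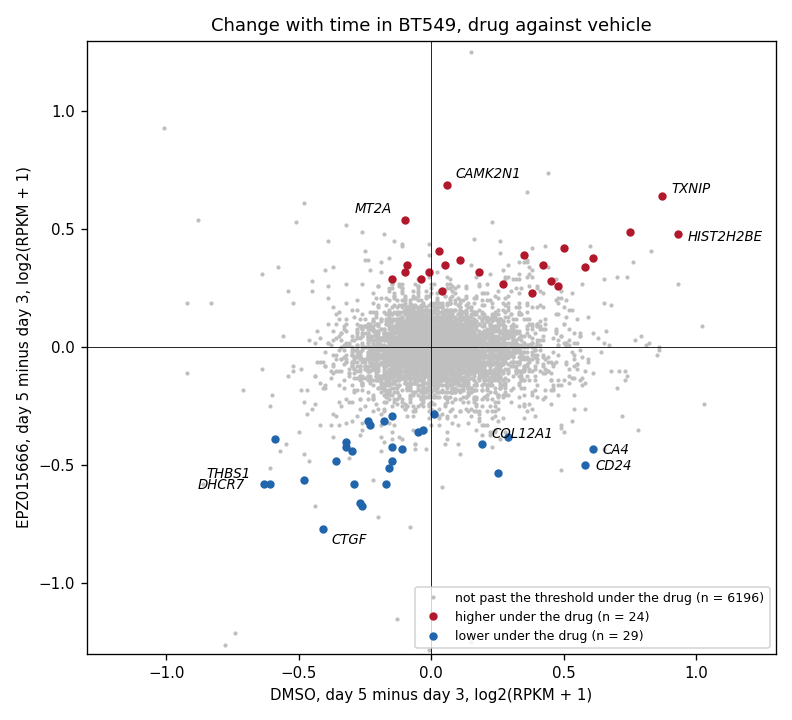
Day 5 minus day 3 change of each gene in BT549 under DMSO (horizontal) and under EPZ015666 (vertical), both as log2 of RPKM + 1, day 5 minus day 3. Each point is 1 gene of 6249, with the 24 rises and 29 falls under the drug in colour and 5 genes outside the plotted range of 1.3, and CD24 and CA4 lie right of 0 and below it.

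Over the 6249 genes the changes under the drug and in DMSO were nearly uncorrelated. Pearson's r was 0.06 and Spearman's rho 0.03, given as a description since genes are not independent. Among the genes past the threshold under the drug the direction was mostly shared. Of the 24 rises 13 also rose in DMSO (10.7% of all genes did) and 1 fell, and of the 29 falls 14 also fell (6.02% of all genes did) and 4 rose. The 27 genes called in the same direction were 50.9% of the 53 and 2.59% of the 1044.

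The 5 genes called in opposite directions were CD24, CA4, COL12A1, NUPR1 and MMACHC. CD24, a sialic acid-bearing surface protein that marks differentiated breast cells, had 47.6 and 51.0 RPKM at day 5 and 70.4 and 70.0 RPKM at day 3 under the drug (-0.5 ± 0.06, adjusted p = 0.0228 by limma). DMSO cells had 135 and 134 RPKM at day 5 and 93.2 and 85.4 RPKM at day 3 (0.58 ± 0.06), a difference between the treatments of -1.09 ± 0.085 (adjusted p = 0.00619). The 4 groups did not overlap, with DMSO at day 5 highest and the drug at day 5 lowest. CA4, a membrane-bound carbonic anhydrase gene, had 1.03 and 1.06 RPKM at day 5 and 1.66 and 1.85 RPKM at day 3 under the drug, against 3.87 and 3.58 RPKM at day 5 and 2.07 and 2.12 RPKM at day 3 in DMSO. COL12A1, a fibril-associated collagen gene, had 4.5 and 4.63 RPKM at day 5 and 6.49 and 6.33 RPKM at day 3 under the drug, against 8.95 and 8.89 RPKM at day 5 and 7.85 and 7.53 RPKM at day 3 in DMSO. NUPR1, a stress-induced chromatin protein gene, differed between the treatments by -0.66 ± 0.072 (adjusted p = 0.00966 by limma). MMACHC, a vitamin B12 processing gene, was the 1 that rose under the drug (0.29) and fell in DMSO (-0.15).

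A test of the difference between the treatments found 373 genes (5.97%), of which 95 changed more upward under the drug (1.52%) and 278 more downward (4.45%). With recovered reads the balance turned, with 960 genes of 11704 more upward (8.2%) and 514 more downward (4.39%). The count was 0 without library A of the drug at day 5, where 1005 genes had an unadjusted p under 0.05, and 38 without library B of that group. It was 18 without library A and 22 without library B of DMSO at day 5. It was 106 without library A and 609 without library B of DMSO at day 3, and 195 without library A and 136 without library B of the drug at day 3. Of the 278, 248 rose in DMSO and 13 fell under the drug, with medians of -0.101 under the drug and 0.332 in DMSO. Of the 95, 8 rose under the drug and 67 fell in DMSO, with medians of 0.123 under the drug and -0.259 in DMSO. These medians describe genes chosen by the difference itself. The 53 genes under the drug shared the 4 drug libraries with this test, and 21 of them are in it, the 8 rises and 13 falls just counted.

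Among the falls with a lower change under the drug than in DMSO were 4 genes with low levels, named here after their values were seen. COL9A2, a collagen gene of cartilage, had 0.924 and 0.995 RPKM at day 5 and 2.02 and 2.16 RPKM at day 3 under the drug, a ratio of 0.46 (-0.66 ± 0.053, adjusted p = 0.0105 by limma). HBEGF, a ligand of the EGF receptor, had 0.563 and 0.526 RPKM at day 5 and 1.06 and 1.24 RPKM at day 3, and 1.27 and 1.21 RPKM at day 5 and 1.5 and 1.47 RPKM at day 3 in DMSO. ENTPD2, an ectonucleotidase gene, had 0.711 and 0.606 RPKM at day 5 and 1.46 and 1.32 RPKM at day 3, from at least 89 reads in each drug library. CCDC80, a secreted matrix protein gene, had 4.16 and 4.28 RPKM at day 5 and 5.59 and 5.72 RPKM at day 3 under the drug, while DMSO had 9.61 and 9.2 RPKM at day 5 and 9.76 and 9.5 RPKM at day 3. A change is understated on the log2(RPKM + 1) scale for such low genes.

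Many of the genes with the largest differences between the treatments rose in DMSO and did not pass under the drug. COL3A1, a fibrillar collagen gene, had 20.6 and 21.6 RPKM at day 5 and 25.4 and 25.3 RPKM at day 3 under the drug, against 50.1 and 50.4 RPKM at day 5 and 34.5 and 32.1 RPKM at day 3 in DMSO (difference -0.84 ± 0.075, adjusted p = 0.00673 by limma). CLU, the secreted chaperone clusterin, had 35.0 and 37.3 RPKM at day 5 and 44.0 and 46.4 RPKM at day 3 under the drug, against 98.2 and 97.2 RPKM at day 5 and 66.3 and 68.3 RPKM at day 3 in DMSO. CFD, complement factor D, and TUBA1A, an alpha-tubulin gene, had differences of -0.87 ± 0.083 and -0.78 ± 0.069. Each of these 4 genes was highest in the DMSO libraries of day 5.

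**Figure D4:**
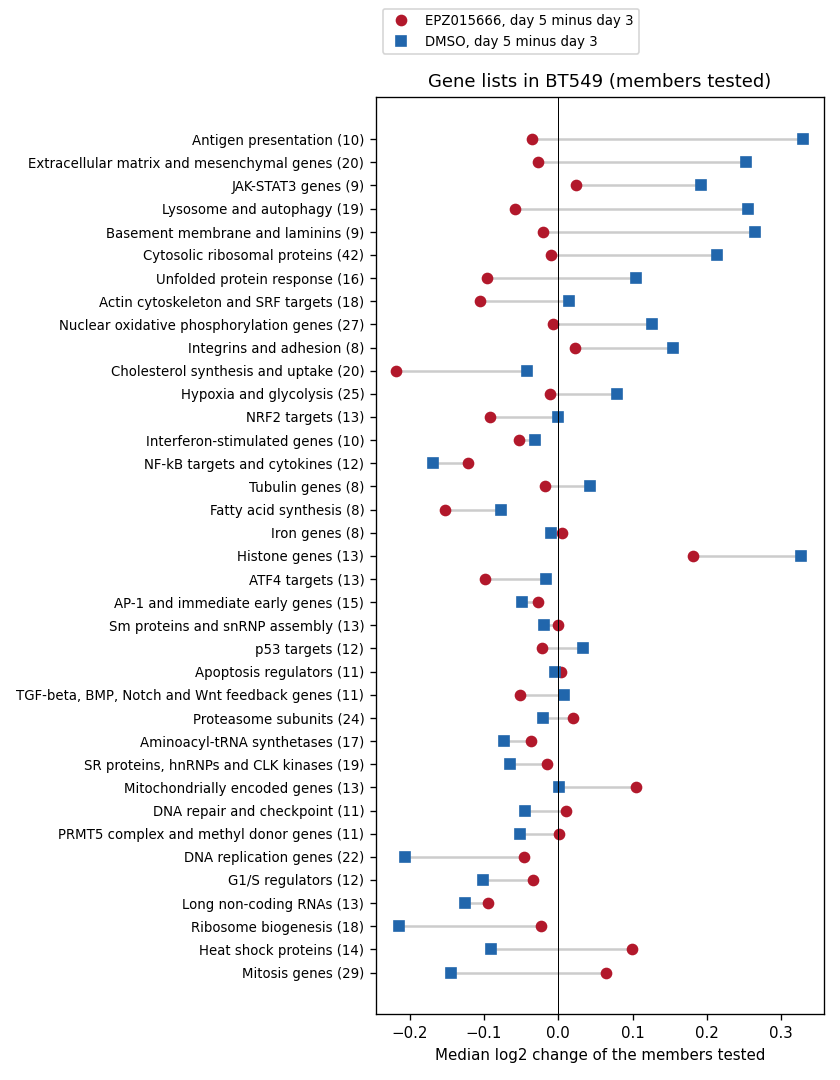
Median log2 change of RPKM + 1, day 5 minus day 3, over the tested members of the 37 gene lists with at least 8 of them in BT549. Circles are EPZ015666 and squares DMSO, with the number of members in parentheses, and mitosis genes lie at 0.0644 under the drug and -0.144 in DMSO.

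Of 44 gene lists 33 had no member past the threshold under the drug. Among 20 extracellular matrix and mesenchymal genes none rose and 2 fell under the drug (THBS1 and COL12A1), with 3 rises and 6 falls at an unadjusted p under 0.05 by limma and 4 rises and 6 falls of 28 in the fit to recovered reads. In DMSO 14 of the 20 rose and 1 fell (10.7% and 6.02% of all genes), and 9 of the 20 were lower in the test of the difference (4.45% of all genes). Of 10 antigen presentation genes none passed under the drug, with 1 fall at an unadjusted p under 0.05 and 0 of 12 called in the fit to recovered reads, and 6 rose in DMSO (10.7% of all genes did). Of 9 basement membrane genes none passed under the drug, with 3 falls at an unadjusted p under 0.05 and 1 rise and 3 falls of 17 in the fit to recovered reads, and 7 rose in DMSO. In each of these 2 lists 4 genes were lower in the test of the difference, as were 4.45% of all genes. Of 42 cytosolic ribosomal protein genes none passed under the drug, where 1 rose and 1 fell at an unadjusted p under 0.05 and the fit to recovered reads called 0 of 44, while 15 rose in DMSO, beside the 10.7% of all genes. Reads of ribosomal protein genes can be shared with processed copies. Over the 6236 tested genes with a single span, the change in DMSO had a Spearman's rho of -0.19 with gene span. The rho with span was 0.03 for the change under the drug and 0.18 for the difference between the treatments. Whether gene length bears on the list counts was not tested.

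The counts of proliferation genes stand beside the 0.848% of all genes that passed under the drug and the 16.7% in DMSO. Of 29 tested mitosis genes none passed under the drug, where 5 rose and 0 fell at an unadjusted p under 0.05 by limma and 3 of 30 rose in the fit to recovered reads. In DMSO 12 of the 29 fell (6.02% of all genes fell there). The log2 value was positive for 22 of the 29 under the drug and negative for 28 of the 29 in DMSO. Over all 6249 genes tested it was positive for 2909 under the drug and negative for 2832 in DMSO. Of the 29, 5 were higher in the test of the difference (1.52% of all genes were). KIF20A, a kinesin of late mitosis, had 37.5 and 38.0 RPKM at day 5 and 33.3 and 33.1 RPKM at day 3 under the drug, against 37.0 and 37.4 RPKM at day 5 and 40.5 and 40.6 RPKM at day 3 in DMSO (difference 0.3 ± 0.06, adjusted p = 0.0374). Of 22 DNA replication genes 11 fell in DMSO and none passed under the drug, where 1 rose and 4 fell at an unadjusted p under 0.05 and 1 rose and 1 fell of 29 in the fit to recovered reads. In the test of the difference 1 of the 22 was higher, with 4 higher and 0 lower at an unadjusted p under 0.05 and 7 of 29 higher with recovered reads (8.2% of all genes). CDC6, which loads the replicative helicase, had 3.57 and 3.42 RPKM at day 5 and 2.9 and 2.99 RPKM at day 3 under the drug, against 2.85 and 2.84 RPKM at day 5 and 3.84 and 3.79 RPKM at day 3 in DMSO (difference 0.51 ± 0.054, adjusted p = 0.00868). Of 18 ribosome biogenesis genes 10 fell in DMSO and none passed under the drug, with 0 rises and 1 fall at an unadjusted p under 0.05 and 0 of 23 in the fit to recovered reads. None of the 18 passed the test of the difference by limma, with 7 higher and 0 lower at an unadjusted p under 0.05. With recovered reads 12 of 23 were higher (8.2% of all genes). Over all genes 9.49% were higher and 16.6% lower in the difference at an unadjusted p under 0.05 by limma. Cell numbers and cycle phases were not measured.

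No gene in the lists of the drug's target complex and of splicing regulators passed the threshold with time under the drug. Only 0.848% of all genes passed, so lists this small would mostly hold none at that share. None of 11 genes of the PRMT5 complex and methyl donor synthesis passed, with 1 rise and 0 falls at an unadjusted p under 0.05 by limma and 0 of 11 in the fit to recovered reads. PRMT5 had 3.52 and 3.23 RPKM at day 5 and 2.84 and 3.09 RPKM at day 3 (0.14 ± 0.057, adjusted p = 0.306). Of 19 genes of SR proteins, hnRNPs and CLK kinases none passed, with 1 rise and 1 fall at an unadjusted p under 0.05. The fit to recovered reads called 1 rise and 1 fall of 21. Over all genes 6.51% rose and 8.58% fell at an unadjusted p under 0.05 by limma. HNRNPH1, a splicing regulator, had 31.7 and 30.6 RPKM at day 5 and 25.8 and 27.9 RPKM at day 3 under the drug without passing (adjusted p = 0.16), and it differed between the treatments by 0.6 ± 0.08 (adjusted p = 0.0173). PRMT5 is inhibited as a protein by the drug, so its transcript is no check of the treatment.

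The same comparison was made in OVCAR8. Of 5370 genes tested in a fit of both lines 268 rose (4.99%) and 492 fell (9.16%) between day 5 and day 3 in OVCAR8 under EPZ015666, and with median-of-ratios scaling the split was 436 and 331. Library B of the drug at day 5 in OVCAR8 had 4.543% of reads from the ribosomal RNA cluster, and without it 238 genes were called. Without library A of that group the count was 359, and without library A or B of the drug at day 3 it was 309 or 331. Across the 5370 genes Pearson's r between the lines was -0.24 and Spearman's rho 0.03. Pearson's r gives more weight to extreme genes than rho does. The drug library with a high share from the ribosomal RNA cluster was of day 3 in BT549 and of day 5 in OVCAR8. How far genes of that cluster bear on r was not tested. Of the BT549 genes past the threshold, 17 rises and 23 falls were tested in OVCAR8. Of the rises 5 rose and 2 fell there, and of the falls 4 fell and 5 rose.

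TXNIP, CTSB, CTGF, THBS1 and TPM1 moved in the same direction in both lines. In OVCAR8 TXNIP had 25.2 and 26.6 RPKM at day 5 and 10.8 and 12.1 RPKM at day 3 (1.11 ± 0.083, adjusted p = 4.11e-05 by limma). CTGF had 17.1 and 18.1 RPKM at day 5 and 21.9 and 21.3 RPKM at day 3 there (-0.28 ± 0.043), and the fall was larger in BT549 by -0.49 ± 0.06 (adjusted p = 0.00119). For THBS1 and TPM1 the difference between the lines did not pass (-0.13 ± 0.09 and -0.1 ± 0.07, adjusted p = 0.406 for each).

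The change differed between the lines in 485 genes (9.03%), of which 251 changed more upward (4.67%) and 234 more downward (4.36%) in BT549, or 179 and 310 with median-of-ratios scaling. Without library A or B of the drug at day 5 in BT549 the count was 162 or 237, without library A of the drug at day 3 it was 270, and without each OVCAR8 drug library it was 195 to 267. Of the lipid genes, DHCR7 had 13.8 and 13.7 RPKM at day 5 and 13.5 and 13.1 RPKM at day 3 in OVCAR8, a difference between the lines of -0.62 ± 0.086 (adjusted p = 0.00237 by limma). SCD rose there to 148 and 148 RPKM at day 5, against 132 and 131 RPKM at day 3 (difference -0.6 ± 0.054). Of 18 cholesterol genes tested in OVCAR8 1 rose and 0 fell by limma, with 2 rises and 0 falls at an unadjusted p under 0.05. CD24 had 72.7 and 71.9 RPKM at day 5 and 59.6 and 62.8 RPKM at day 3 there, and CLDN1, a tight junction gene that fell in BT549 to 1.94 and 1.85 RPKM at day 5, against 2.97 and 2.75 RPKM at day 3, rose in OVCAR8 to 2.3 and 2.39 RPKM at day 5, against 1.28 and 1.31 RPKM at day 3. The differences between the lines were -0.74 ± 0.067 for CD24 and -0.96 ± 0.056 for CLDN1. NFKBIA, the NF-kB inhibitor gene, and CCND1, the cyclin D1 gene, did not pass in BT549 and changed by 0.65 and -0.71 in OVCAR8, with differences of -0.98 ± 0.1 and 0.65 ± 0.081.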

How the data were processed

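Per the labels, RNA came from the RNeasy Plus Mini Kit and Novogene made stranded poly(A) libraries. The aligner, versions and annotation were not given in the sources used here, and the submitters' processing notes name featureCounts and GRCh38. The authors deposited RPKM for 16591 symbols in 24 libraries. RPKM times the GENCODE v29 gene span gave whole reads (within 0.02) for 100% of values under 1000 reads, for the 16544 symbols with a single span and not for 47.

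Genes with a mean of at least 1 RPKM over 8 BT549 libraries were tested on log2(RPKM + 1) with limma 3.58.1 (trend) in R 4.3.3, 4 group means, two-sided, with Benjamini-Hochberg adjustment over all genes tested and a threshold of 0.05. Fold ratios are of mean RPKM. OVCAR8 and the line difference came from 1 fit of 16 libraries over genes passing in both lines. An exact permutation test of 2 against 2 libraries cannot go below 0.333. The fit was tested on simulated data. Replicate letters were not taken as pairs.

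The comparison, members and gene lists were chosen with earlier results of these data known. Named genes follow a rule: the 12 largest rises and falls past the threshold with at least 5 RPKM, the 8 largest of each difference each way, and up to 4 members per list. AMOTL2, FDPS, HMGCS1, SQLE, TM7SF2, PSAP, CAMK2N1, CCDC80, CA4, NUPR1, MMACHC, ENTPD2, COL9A2, HBEGF and CLDN1 were added after their values were seen. Some members of the lists are counted and not reported by name here. Alternatives were another pseudocount (0.1), filters, median-of-ratios scaling, a replicate block, other sets of libraries, recovered reads with limma-voom (at least 1 CPM) and leaving out each library.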

Additional observations from a re-analysis of the deposited data

Results flagged for a closer look

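The change between day 5 and day 3 in BT549 differed between EPZ015666 and DMSO in 373 genes, by the limma test of the difference. All log2 values that follow are the change under the drug minus the change in DMSO, with an adjusted p under 0.05. In lipid genes it was -1.01 for TM7SF2, -0.41 for LSS, -0.32 for SCD and -0.31 for HMGCS1. For surface, secreted and matrix genes it was -1.09 for CD24, -1.04 for CA4, -0.87 for CFD, -0.84 for CLU, -0.84 for COL3A1, -0.78 for ENTPD2 and -0.6 for COL12A1. It was -0.38 for COL9A2, -0.36 for CTGF, -0.33 for HBEGF and -0.32 for CCDC80. Other genes with a lower change under the drug were TUBA1A at -0.78, NUPR1 at -0.66 and PSAP at -0.53. Genes with a higher change under the drug were SLC30A1 at 0.71, MT2A at 0.64, CAMK2N1 at 0.63, HNRNPH1 at 0.6, CDC6 at 0.51, NT5E at 0.38 and KIF20A at 0.3.

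Between the lines under EPZ015666 the change differed in 485 genes, by the same kind of test, and the values that follow are the log2 change in BT549 minus that in OVCAR8. Of the lipid genes it was -0.64 for TM7SF2, -0.62 for DHCR7, -0.6 for SCD, -0.53 for LSS, -0.52 for FADS2 and -0.41 for EBP. It was -0.37 for HMGCS1, -0.36 for FDPS and -0.26 for SQLE. In matrix, surface and signalling genes it was -0.98 for NFKBIA, -0.96 for CLDN1, -0.74 for CD24, -0.65 for COL9A2, -0.58 for CCDC80, -0.49 for CTGF, -0.49 for COL12A1 and -0.47 for HBEGF. It was -0.47 for TXNIP, -0.35 for AMOTL2, -0.34 for CYR61 and -0.24 for TUBA1A. Genes with a higher change in BT549 were CCND1 at 0.65, CDC6 at 0.61, CAMK2N1 at 0.59, NT5E at 0.56, MT2A at 0.54 and GJA1 at 0.47. The remaining values were 0.37 for HNRNPH1, 0.31 for CTSL, 0.27 for KIF20A and 0.26 for PRMT5.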

How the results depend on the processing

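Each of the 53 genes past the threshold under the drug had the same direction in each of the 16 other settings that tested it. How many passed depended on the setting. The count was 636 with 1 fit over all 24 libraries (51 of the 53 among them), 553 with recovered reads, 0 with the 4 libraries alone and 0 to 56 with 1 library left out. Median-of-ratios scaling gave 51 (50 of the 53), a pseudocount of 0.1 gave 50 (48 of the 53) and no filter gave 42, only 18 of the 53 among them. A mean of at least 5 RPKM gave 40 and tested 25 of the 53, each of which passed. For DMSO the count of 1044 was 2275 with all 24 libraries, 2625 with recovered reads, 596 with the 4 libraries alone, 590 at a mean of at least 5 RPKM and 158 to 1120 with 1 library left out. For the difference between the treatments the count of 373 was 1591 with all 24 libraries, 1474 with recovered reads, 231 at a mean of at least 5 RPKM, 113 with no filter and 0 to 609 with 1 library left out. For OVCAR8 the count of 760 was 336 at a mean of at least 5 RPKM, 1415 with no filter and 238 to 896 with 1 library left out. For the difference between the lines the count of 485 was 745 with all 24 libraries, 199 at a mean of at least 5 RPKM, 858 with no filter and 162 to 549 with 1 library left out. Median-of-ratios scaling gave 56.8% higher calls in OVCAR8, where the unscaled RPKM gave 35.3%, and 36.6% between the lines, where the unscaled RPKM gave 51.8%. With recovered reads the share of calls that were higher was 62.7% under the drug, 40.9% in DMSO and 65.1% in the difference between the treatments, against 45.3%, 64.0% and 25.5% by limma on RPKM. The causes were not tested.

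With the replicate letter as a block 2 genes passed under the drug and 91 in the difference between the treatments. The differences between libraries A and B correlated between groups at -0.224 to 0.168, and at -0.058 between the drug groups of day 5 and day 3. These values do not settle whether a letter marks a shared batch. Among the single genes named, 535 values stayed on their side of the threshold, 260 lost a call and 36 gained one, with none reversed. For genes whose days did not overlap, most settings could not have reversed a value. Of the list medians 158 moved by less than the spread between libraries and 18 by more. With 2 libraries a group, small changes can be missed. The smallest changes called under the drug were 0.23 for rises and -0.28 for falls. A limit of detection was not measured.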
